A study of Mus musculus with 15 samples.

Results

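The genes described here encode the protein subunits of the mitochondrial ribosome. They are the rows of the count table whose Ensembl identifier maps to a protein-coding mouse symbol made of Mrpl or Mrps and a number, with a letter suffix allowed and pseudogenes left out. The rule found 77 of 37991 genes. By their place in the ribosome, 50 encode large-subunit and 26 small-subunit proteins. Mrps36 is kept by its name, although its product is now known as a component linked to the oxoglutarate dehydrogenase complex. The count table came from C57BL/6 mice of 2 genotypes, wild type and IL-33 knockout, the latter lacking an alarmin cytokine of barrier and stromal cells. Brown fat was collected from newborns (postnatal day 0.5) and gave 4 wild-type libraries and 4 that are labelled knockout. Inguinal white adipose tissue was taken at day 24, with 4 wild-type libraries and 3 knockout libraries numbered 2 to 4. Depot and age differ together, so they cannot be told apart in any comparison between depots. No label ties a library to an animal of its own, so each p-value rests on spread between libraries that may be technical. Not given in the sources used here are the allele and any pooling of animals.

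Mitochondrial ribosomes translate only the few respiratory chain subunits encoded by mitochondrial DNA. Their RNAs are mitochondrial, but all their proteins are encoded in the nucleus, made on cytosolic ribosomes and imported. Some proteins descend from bacterial ribosomal proteins, and others were acquired during the evolution of mitochondria. Brown and beige adipocytes are rich in mitochondria and burn fuel for heat through the uncoupling protein Ucp1, so their respiratory chain has to be supplied by both genomes.

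The nuclear promoters of such genes are known to hold sites for the factors NRF1, GABP (an ETS factor) and YY1. Of the 77 members, 68 had a promoter window in the RefSeq table (build GRCm38.p6), running from 250 bases before to 50 bases after the start. The windows were searched on both strands for 4 motifs, none of which contains another: CCGGAAG (ETS/GABP), the E-box CACGTG, and the core letters of NRF1 and YY1, which are those in capitals for Mrpl9 and Mrps11 below. CCGGAAG was in 25 of the 68 windows, or 36.8%, against 9.93% of the 27025 promoters in the table and 18.3% of the 11387 promoters of genes tested in inguinal tissue. YY1 letters were in 5 member windows (7.35%), against 0.995% of all promoters and 2.13% of those of tested genes. NRF1 letters were in 3 (4.41%), against 1.07% and 2.13%. The E-box was in 5 (7.35%), against 8.09% and 11.1%. The 130 bases before the start are given for 8 members that changed in inguinal knockout tissue. They were chosen to show the NRF1, ETS/GABP and YY1 letters, beside the member with the largest rise (Mrps2) and the one that fell (Mrps6). Each runs 5′ to 3′ in the gene's direction, and capitals mark the motif letters on either strand.

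Mrps2: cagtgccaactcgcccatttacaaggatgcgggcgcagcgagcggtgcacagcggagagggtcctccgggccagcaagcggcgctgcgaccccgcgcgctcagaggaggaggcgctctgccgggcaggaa
Mrpl9: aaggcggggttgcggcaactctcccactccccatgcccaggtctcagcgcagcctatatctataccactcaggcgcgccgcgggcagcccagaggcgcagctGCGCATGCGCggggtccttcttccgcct
Mrpl39: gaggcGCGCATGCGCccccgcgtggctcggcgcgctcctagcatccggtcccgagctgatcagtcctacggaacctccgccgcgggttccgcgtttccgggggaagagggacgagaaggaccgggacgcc
Mrpl3: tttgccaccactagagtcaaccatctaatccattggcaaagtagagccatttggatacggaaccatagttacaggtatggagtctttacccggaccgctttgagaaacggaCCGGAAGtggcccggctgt
Mrps27: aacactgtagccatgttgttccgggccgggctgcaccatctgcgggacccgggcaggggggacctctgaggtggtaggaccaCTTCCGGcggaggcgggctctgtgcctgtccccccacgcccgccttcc
Mrpl51: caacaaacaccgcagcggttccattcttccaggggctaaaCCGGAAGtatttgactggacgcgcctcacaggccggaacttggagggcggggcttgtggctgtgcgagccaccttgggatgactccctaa
Mrps11: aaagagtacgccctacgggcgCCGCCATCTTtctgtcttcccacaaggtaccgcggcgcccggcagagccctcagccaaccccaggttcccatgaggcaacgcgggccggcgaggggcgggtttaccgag
Mrps6: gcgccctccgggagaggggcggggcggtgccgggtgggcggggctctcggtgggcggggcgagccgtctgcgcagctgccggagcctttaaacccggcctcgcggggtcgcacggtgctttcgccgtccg

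Mrpl9 lies on the plus strand (chr3:94443206-94443335) and Mrpl39 on the minus strand (chr16:84735245-84735374), and both hold the NRF1 letters. Those of Mrpl3 (chr9:105053138-105053267), Mrps27 (chr13:99344656-99344785) and Mrpl51 (chr6:125192070-125192199), all plus strand, hold the ETS/GABP letters, in reverse orientation in Mrps27. Mrps11 (chr7:78783001-78783130, plus strand) holds the YY1 letters in reverse. The windows of Mrps2 (chr2:28467936-28468065) and Mrps6 (chr16:92058206-92058335), both plus strand, hold none of the 4 motifs. A match describes letters and not a bound site.

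Library totals ran from 26059635 to 53923009 counts, and the 77 members took 0.344% to 0.461% of them. Levels are given as CPM, a gene's counts relative to the library total after scaling by the trimmed mean of M values. Il33 checks the labels: it was at 3.45 to 4.61 CPM in wild-type and 0.0791 to 0.471 CPM in knockout inguinal tissue. In brown tissue it was at 1.73 to 3.21 CPM in wild type and 0.413 to 1.75 CPM in the labelled knockout, groups that overlapped and did not pass the test (edgeR adjusted p = 0.229). Brown tissue is therefore called labelled knockout throughout. Brown adipocyte markers (7 genes, summed) were at 4407 to 10150 CPM in brown libraries and 1551 to 3888 CPM in inguinal ones, and general adipocyte markers were present in all. Labelled knockout library 1 stood apart from the other brown knockout libraries in many members, and brown results are given with and without it.

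Nearly all members were measured well. In each comparison 76 of the 77 passed the filter on low counts, and 75 averaged at least 5 CPM. Mrpl53 did not pass: it had 0 to 4 counts per library, and all its exons are covered on the same strand by Gm42688, which had 60 to 169. Mrps34, whose product helps to stabilise the small subunit, was low at 6 to 115 counts per library. Per kilobase of exon and averaged over all libraries, the highest levels were those of Mrpl42 (174.9 CPM per kb), Mrpl30 (168) and Mrpl20 (89.0), and the lowest after Mrpl53 were Mrps34 (1.19) and Mrps25 (5.07). Nr2c2, on the opposite strand, overlaps 58.2% of the exons of Mrps25.

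In inguinal tissue the comparison asks how subunit transcripts differ when IL-33 is missing at day 24. Of the 76 members tested, 23 rose in the knockout (30.3%, where 15.3% of all genes tested rose) and 1 fell (1.32%, where 13.3% of all genes fell). Calls were made by edgeR's quasi-likelihood test over 15710 genes, with a threshold of 0.05 on the Benjamini-Hochberg adjusted p. The rises were moderate, from 1.19-fold to 1.61-fold with a median of 1.33-fold. Over all 76 members the median log2 change was 0.19 against -0.016 over all genes, and 60 members lay above 0. In 30 members every knockout library was above every wild-type library, and in 4 every one was below, against 18.3% and 18.5% of all genes. Of the 24 calls, 15 held in each of the 7 fits that left out 1 library. The number that rose was 15 without wild-type library 2 or 3, 14 with all groups in 1 fit, and 12 when libraries were scaled by their totals alone, which moved the median of all genes by -0.099.

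**Figure D1:**
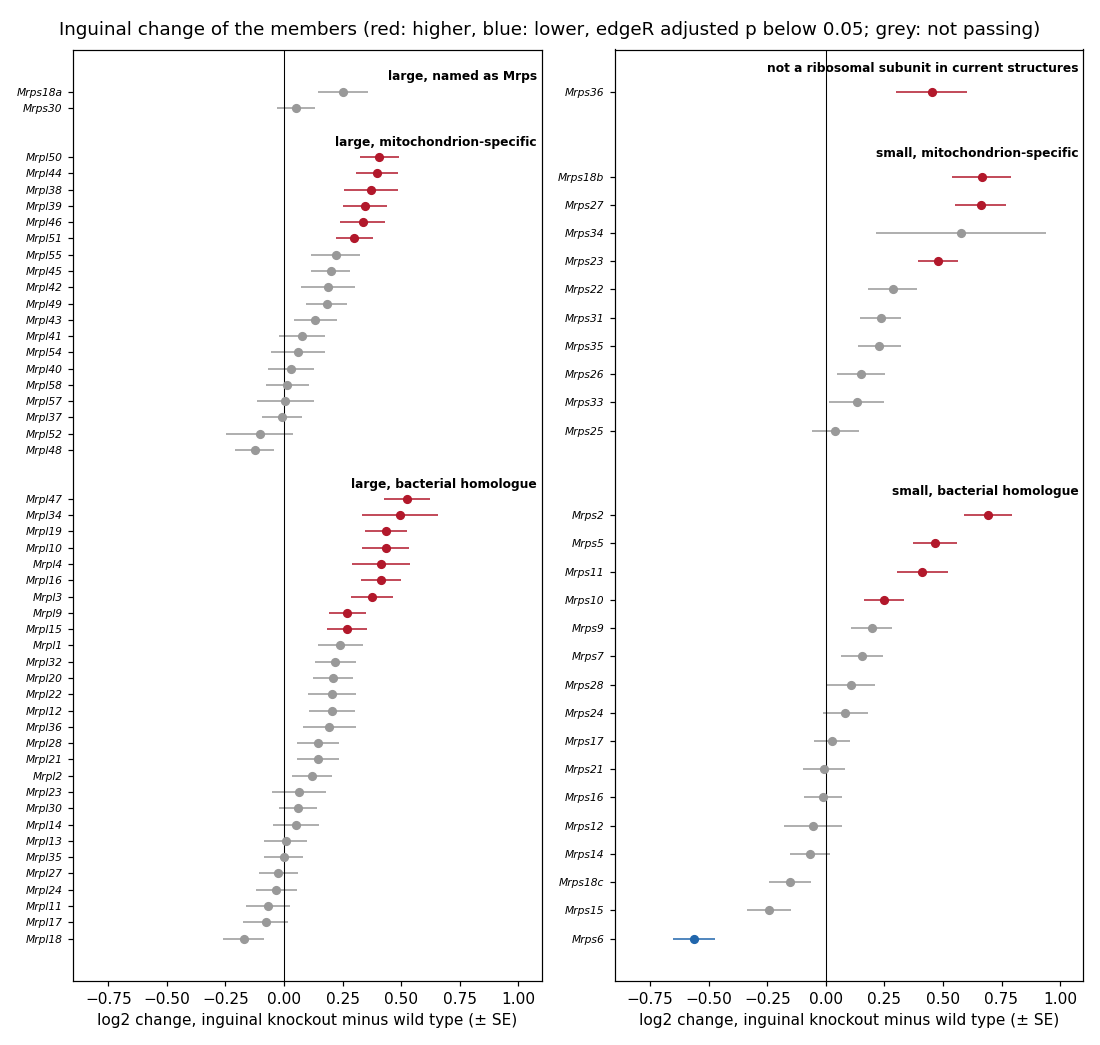
Log2 change of each of the 76 tested members in inguinal tissue, knockout minus wild type, with its standard error, grouped by subunit and origin. Red points (23) rose, the blue point (Mrps6) fell and grey points did not pass. Red points occur in both subunits and most points lie right of 0.

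Rises were spread over both subunits. Among large-subunit proteins with bacterial homologues, 9 of 28 rose, and among those found only in mitochondria, 6 of 19. In the small subunit, 4 of 16 with bacterial homologues rose and 1 fell, and 3 of 10 mitochondrion-specific proteins rose. All 10 of these last members had a change above 0. Mrps18a and Mrps30, large-subunit proteins despite their names, did not pass (log2 0.25 and 0.05, edgeR adjusted p = 0.0912 and 0.693).

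Mrps2, homologue of bacterial S2 on the back of the small subunit (ENSMUSG00000035772, chromosome 2), rose most. Its level was 66.8, 68.9, 64.0 and 75.9 CPM in the wild-type libraries and 125, 108.5 and 96.9 CPM in knockout libraries 2, 3 and 4. All 3 knockout libraries lay above all 4 wild-type libraries. The log2 change was 0.69 ± 0.10 (SE, 4 against 3 libraries; edgeR adjusted p = 0.000273). Mrps27, a pentatricopeptide repeat protein of the small subunit, was at 32.0, 29.1, 29.9 and 30.3 CPM in wild type and 54.9, 47.7 and 40.1 CPM in the knockout. Here too the groups did not overlap, with knockout library 2 the highest (log2 0.66 ± 0.11, edgeR adjusted p = 0.000543).

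Mrps23, a mitochondrion-specific protein, had very even wild-type levels of 50.4, 51.9, 51.2 and 50.7 CPM and rose to 76.5, 70.1 and 65.1 CPM. The lowest knockout library lay well above the highest wild-type library (log2 0.48 ± 0.09, edgeR adjusted p = 0.00104). Mrps5, homologue of the S5 protein near the messenger RNA entrance, averaged 41.1 ± 1.82 CPM (SD, n = 4) in wild type and 56.2 ± 6.07 CPM (SD, n = 3) in the knockout (log2 0.46 ± 0.09, edgeR adjusted p = 0.0025). Mrps11, a platform protein, averaged 18.3 ± 1.98 and 24.2 ± 1.97 CPM (log2 0.41 ± 0.11, edgeR adjusted p = 0.0121). Its gene starts within 1000 bases of Mrpl46, on the other strand, and Mrpl46 rose as well (log2 0.34 ± 0.10, edgeR adjusted p = 0.0187). Mrpl46 lost its call without wild-type library 2 or 3 or knockout library 2, with an edgeR adjusted p of at most 0.0616.

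A set of 3 paralogues resembles bacterial S18. Mrps18c takes the place of S18 in the small subunit, Mrps18b lies elsewhere in the small subunit and is grouped here with the mitochondrion-specific proteins, and Mrps18a lies in the large subunit. Mrps18b was at 14.0, 15.5, 14.0 and 14.9 CPM in wild type and 28.0, 19.6 and 21.3 CPM in the knockout. Groups did not overlap and the change passed (log2 0.67 ± 0.13, edgeR adjusted p = 0.00159), whereas Mrps18c was at log2 -0.15 ± 0.09 and did not pass (edgeR adjusted p = 0.215). Exons of Mrps18b overlap the antisense gene Gm16279 over 59.1% of their length, and no source used here gives the strand setting of the counting, so reads of the pair cannot be told apart. Smaller opposite-strand overlaps affect Mrps27 (22.6%) and, in the large subunit, Mrpl47 (18.1%) and Mrpl19 (39.2%).

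In the large subunit Mrpl47, homologue of L29 beside the exit tunnel, had the largest change. Its levels were 29.3, 30.5, 29.1 and 32.8 CPM in wild type and 43.4, 48.4 and 38.3 CPM in the knockout. No knockout library reached down to the wild-type range (log2 0.52 ± 0.10, edgeR adjusted p = 0.00158). Mrpl16, homologue of L16 near the peptidyl transferase centre, was at 41.0, 40.4, 42.8 and 38.9 CPM and at 56.8, 54.4 and 50.2 CPM. The groups were again apart (log2 0.41 ± 0.09, edgeR adjusted p = 0.00286). Mrpl50, found only in mitochondria, was at 56.6, 58.9, 59.0 and 57.2 CPM and at 74.0, 82.4 and 72.0 CPM. Knockout library 3 was the highest for this gene, and all 3 exceeded wild type (log2 0.41 ± 0.08, edgeR adjusted p = 0.00245).

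Of the stalk, which recruits translation factors, Mrpl10 rose (log2 0.43 ± 0.10, edgeR adjusted p = 0.00534) while Mrpl12 was at log2 0.20 ± 0.10 and did not pass (edgeR adjusted p = 0.128). That these 2 changes differ was not tested. Others that rose were Mrpl19, Mrpl3, the ribonuclease-like protein Mrpl44, Mrpl51 and the synthetase-like protein Mrpl39, with log2 changes of 0.43, 0.38, 0.40, 0.30 and 0.35. Mrpl39 lost its call only without wild-type library 3 (edgeR adjusted p = 0.0512). The 8 with the weakest calls, among them Mrpl46, Mrps36 and Mrpl9, each lost them in 3 to 6 of the 7 fits without 1 library. For Mrpl34 the knockout libraries were at 51.1, 34.0 and 30.1 CPM against 31.3, 28.1, 25.4 and 25.2 CPM in wild type. Library 4 of the knockout lay inside the wild-type range, and without knockout library 2, or without wild-type library 2, 3 or 4, the call was lost.

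Members without a call included the release and rescue factor Mrpl58 (log2 0.01 ± 0.09, edgeR adjusted p = 0.928) and the decoding-centre protein Mrps12 (log2 -0.05 ± 0.12, edgeR adjusted p = 0.782). Mrps36 was at 13.2, 13.1, 13.5 and 11.7 CPM in wild type and 22.8, 14.96 and 14.5 CPM in the knockout. Its groups did not overlap, but knockout library 2 stood far above the others (log2 0.45 ± 0.15, edgeR adjusted p = 0.038), and the call was lost without it or without any 1 of the wild-type libraries.

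Mrps6 was the only member that fell in inguinal knockout tissue. It encodes the homologue of bacterial S6, the platform partner of S18 (ENSMUSG00000039680, chromosome 16). Levels were 82.6, 72.6, 70.9 and 78.9 CPM in wild type and 54.3, 48.5 and 50.8 CPM in the knockout. Every knockout library lay below every wild-type library, and the call held in all 7 fits without 1 library (log2 -0.56 ± 0.09, edgeR adjusted p = 0.000468). Same-strand genes, among them the inositol transporter Slc5a3, cover 36.1% of its exons. Slc5a3 was at 88.4 to 115 CPM in wild type and 42.1 to 84.8 CPM in the knockout (log2 -0.56, edgeR adjusted p = 0.0727), and no source used here says how reads of the pair were assigned.

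**Figure D2:**
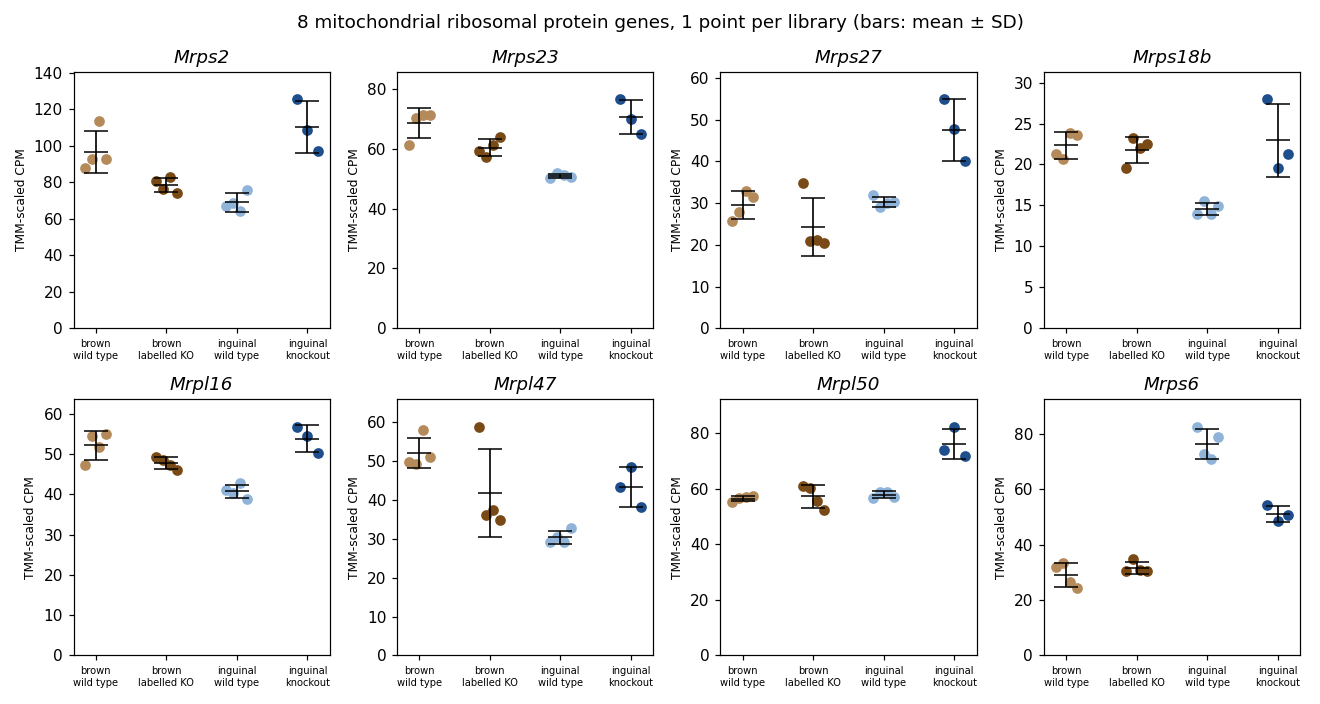
TMM-scaled CPM of 8 members in every library, with mean and SD per group. In inguinal tissue the 3 knockout libraries lie above the 4 wild-type libraries for 7 genes and below them for Mrps6, and in brown tissue labelled knockout library 1 stands apart for Mrps27 and Mrpl47.

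Markers of several cell types moved in the same libraries. Of 10 skeletal muscle markers 9 were lower in inguinal knockout tissue, with summed levels of 129 to 355 CPM in wild type and 37.6 to 42.4 CPM in the knockout. All 4 proliferation markers were lower (227 to 324 against 173 to 192 CPM), as were 2 of 4 endothelial markers (766 to 925 against 688.5 to 750.1 CPM) and 2 of 8 B cell markers (13.8 to 25.3 against 5.70 to 16.2 CPM). Of 7 brown adipocyte markers 5 were higher (1551 to 2320 against 3052 to 3888 CPM). Of 6 general adipocyte markers 1 was higher, of 4 progenitor markers 1 was higher and 1 lower, and none passed among T cell, macrophage and erythroid markers. Epithelial markers were too low to test. Krt5, one of them, was at 0 in all knockout libraries, and no other marker was at 0 throughout a group. Their part in the changes of the members was not tested, and in whole tissue fewer cells of a type and less RNA per cell cannot be told apart.

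Brown tissue at day 0.5 gave no such pattern in edgeR with every library kept. None of the 76 members passed in edgeR, with 0 higher and 0 lower, where 0.26% of all 15796 genes did (0.184% higher and 0.076% lower). At an unadjusted p below 0.05 there were 5 higher (6.58%) and 7 lower (9.21%), where 10.3% and 8.28% of all genes were, so these shares lie near or below the background. The DESeq2 Wald test called 1 higher (Mrps34) and 0 lower, where it called 3.98% and 2.55% of all genes. Limma-voom with quality weights called 3 of the 76 higher and 13 of the 76 lower, where it called 10.2% and 9.55% of all genes. By limma-voom the share of members called lower was thus above that of all genes, and the share called higher was below it. The median log2 change was -0.078 against 0.0061 over all genes, with 31 members above 0 and 45 below. The libraries did not overlap in 2 members that were higher and 4 that were lower, against 4.88% and 4.86% of all genes.

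Largest among the changes was that of Mrps34, which rests on few counts. Its levels were 0.840, 0.390, 0.172 and 0.210 CPM in wild type and 0.991, 0.469, 3.11 and 1.58 CPM in the labelled knockout. The groups overlapped, and the highest library was labelled knockout 3 (log2 1.93 ± 0.64, edgeR adjusted p = 0.166). Next above 0 were Mrps12 (log2 0.47 ± 0.18, edgeR adjusted p = 0.201) and Mrpl41 (0.38 ± 0.14, edgeR adjusted p = 0.198). Furthest below 0 were Mrpl22 (-0.39 ± 0.15), Mrpl46 (-0.38 ± 0.13) and Mrpl49 (-0.34 ± 0.15), with edgeR adjusted p-values of 0.205, 0.177 and 0.257.

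One library set the spread of several members. Mrpl47 was at 49.9, 49.4, 57.95 and 51.2 CPM in wild-type brown tissue and at 58.9, 36.0, 37.4 and 35.0 CPM in labelled knockout libraries 1 to 4. Library 1 lay above all wild-type libraries and the other 3 below all of them. Mrps27 showed the same, with 25.7, 27.8, 33.0 and 31.4 CPM in wild type and 34.8, 20.8, 21.1 and 20.5 CPM in the labelled knockout. Mrpl18 was at 52.0, 60.6, 51.9 and 52.5 CPM in wild type, and at 74.7 CPM in labelled knockout library 1 against 32.4, 40.1 and 33.4 CPM in the others.

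Without labelled knockout library 1, 12 of the 76 members were lower and 1 higher, where 8.41% and 9.66% of all genes were. The share of members lower was above that of all genes, and the share higher was below it. The largest changes were those of Mrpl18 (log2 -0.62, edgeR adjusted p = 0.00488), Mrpl22 (-0.54, 0.00931), Mrpl47 (-0.53, 0.00495), Mrpl12 (-0.53, 0.023), Mrps27 (-0.51, 0.0144) and Mrpl49 (-0.50, 0.0071). Mrpl41, a mitochondrion-specific protein of the large subunit, was the one higher (log2 0.48, edgeR adjusted p = 0.0212). Of the 12 lower members, 5 (41.7%) had risen in inguinal knockout tissue, where 30.3% of all 76 members tested had risen. They make up 21.7% of the 23 inguinal risers, where 12 of all 76 members were lower. Whether the overlap exceeds what these shares give was not tested. The 5 are Mrpl47, Mrps27, Mrpl46, Mrpl44 and Mrpl3. These names were taken after their values were seen. No cell type marker was called in brown tissue by edgeR, but summed marker levels also set library 1 apart. Proliferation markers were at 213 CPM in it against 58.2 to 103 CPM in the other labelled knockout libraries and 44.0 to 165 CPM in wild type. Progenitor markers were at 638 CPM against 401.5 to 496 and 313 to 453 CPM, and brown adipocyte markers at 4407 CPM against 5904 to 7516 and 5967 to 10150 CPM. Labelled knockout library 4 held epithelial markers at 68.7 CPM, against 0.541 to 1.29 CPM in the other brown libraries. The part of these markers in the members' levels was not tested.

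The difference between the 2 knockout effects was tested with all 4 groups in 1 fit. It asks whether a member moved differently in inguinal and brown tissue. In 9 of 76 members the inguinal effect was the higher (11.8%, against 4.8% of all 16858 genes), and in 1 the lower (1.32%, against 4.2%). At an unadjusted p below 0.05 the counts were 27 (35.5%) and 2 (2.63%), against 11.9% and 13.8% of all genes. The median difference was 0.14 on the log2 scale against -0.066 over all genes. This comparison uses the same libraries as the 2 knockout comparisons and is no further evidence for either.

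Mrps2 had the largest difference: log2 0.69 in inguinal tissue and -0.31 in brown, a difference of 0.98 ± 0.15 (edgeR adjusted p = 0.00123). In brown tissue its levels were 87.6, 92.7, 114 and 92.6 CPM in wild type and 80.6, 76.3, 82.8 and 74.3 CPM in the labelled knockout. The 4 labelled knockout libraries thus lay below all wild-type ones, although that change did not pass (edgeR adjusted p = 0.17). Mrps23 differed by 0.65 ± 0.12 (edgeR adjusted p = 0.00367) and Mrpl16 by 0.53 ± 0.11 (edgeR adjusted p = 0.0102). Mrps6 went the other way, with log2 -0.56 in inguinal and 0.12 in brown tissue, a difference of -0.70 ± 0.15 (edgeR adjusted p = 0.0107). These 4 calls held whichever of the 15 libraries was left out. With the replicate number as a block in the fit, Mrpl16 lost its call (edgeR adjusted p = 0.06545). For Mrps6 the overlap with same-strand genes given above limits this difference too.

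The other 6 were Mrps27 (difference 0.93), Mrpl47 (0.83), Mrpl46 (0.70), Mrps18b (0.69), Mrpl10 (0.49) and Mrpl50 (0.38), with edgeR adjusted p-values between 0.0182 and 0.0445. Each lost its call without knockout library 2 of inguinal tissue. Mrpl10 lost it in 10 and Mrpl50 in 12 of the 15 fits without 1 library, with edgeR adjusted p-values up to 0.106 and 0.133. The number with the higher inguinal effect was 3 without that library, 5 without inguinal knockout library 3 and 26 without brown labelled knockout library 1. Across the 76 members the 2 effects had a Pearson's r of 0.079 and a Spearman's rho of -0.046, as a description over genes that share libraries. Of the 23 inguinal risers, 15 lay below 0 in brown tissue, as did 45 of all 76 members. Over all 76 members, 35 were below 0 in brown and above 0 in inguinal tissue, 25 above 0 in both and 10 below 0 in both.

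**Figure D3:**
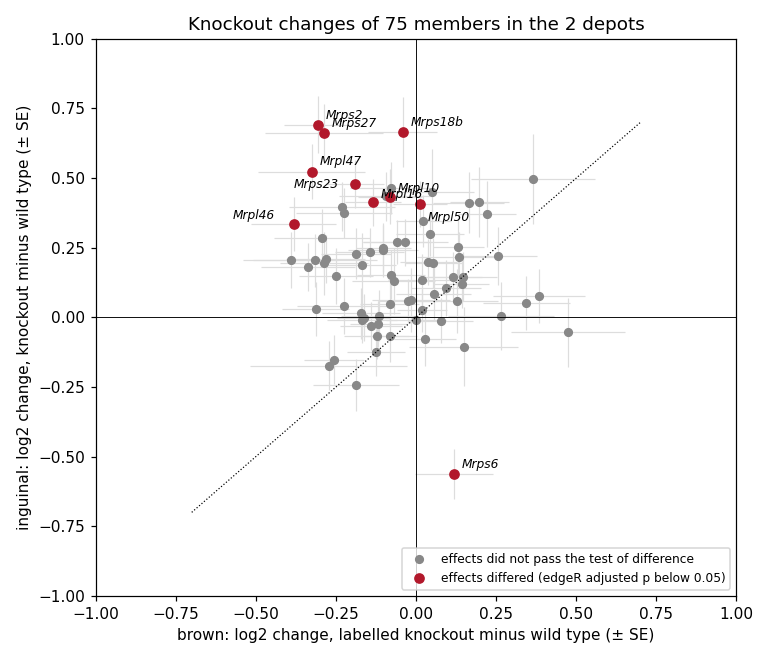
Log2 change in inguinal tissue (vertical) against that in brown tissue (horizontal) for 75 members, each with its standard error. Mrps34 is left out for its wide error, and the dotted line marks equal change. The 10 red members differed between depots, 9 of them above the dotted line and Mrps6 below it.

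Wild-type brown tissue at day 0.5 was compared with wild-type inguinal tissue at day 24. Of 76 members, 31 were higher in brown (40.8%) and 16 lower (21.1%), where 61.4% of all genes differed, 30.7% higher and 30.7% lower. The median log2 difference was 0.12 against 0.0097 over all genes. For comparison, 67 of 81 nuclear-encoded respiratory chain subunits were higher and 5 lower, with a median of 0.55. Large-subunit proteins with bacterial homologues had 16 higher and 6 lower of 28, and small-subunit ones 4 higher and 5 lower of 16.

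The widest difference upward was that of Mrps36, at 27.5, 33.9, 24.7 and 26.8 CPM in brown and 13.2, 13.1, 13.5 and 11.7 CPM in inguinal wild-type tissue. Every brown library was above every inguinal one (log2 1.14 ± 0.11, edgeR adjusted p = 2.92e-06). Mrpl9 (0.90 ± 0.09), Mrpl15 (0.89 ± 0.09), Mrpl47 (0.78 ± 0.08), Mrpl3 (0.69 ± 0.09), Mrpl30 (0.66 ± 0.07), Mrps9 (0.63 ± 0.07) and Mrpl39 (0.63 ± 0.07) followed, all with edgeR adjusted p-values of at most 2.71e-05. Mrps6 was the furthest in the other direction, at 31.8, 33.5, 26.4 and 24.3 CPM in brown against 70.9 to 82.6 CPM in inguinal tissue (log2 -1.40 ± 0.10, edgeR adjusted p = 4.4e-07). Mrps34 (-1.32 ± 0.49, edgeR adjusted p = 0.036), Mrps15 (-0.88 ± 0.11), Mrps25 (-0.62 ± 0.09), Mrpl12 (-0.58 ± 0.09) and the decoding-centre protein Mrps12 (-0.47 ± 0.09) were also lower in brown tissue. Transcripts of subunits of the same ribosome thus differed in opposite directions between these tissues, as those of Mrpl9 and Mrps15 did. For Mrps6, same-strand genes cover 36.1% of the exons, and no source used here says how reads were assigned. Slc5a3, one of these genes, had 1117 to 1372 unscaled counts in wild-type brown and 2479 to 4926 in wild-type inguinal libraries. Opposite-strand genes overlap 58.2% of the exons of Mrps25 (Nr2c2) and 15.2% of those of Mrpl12 (Gm16755). With the strand setting of the counting not given, reads of these pairs cannot be told apart. Mrps34 rests on few counts and its groups overlapped, and its call was lost in 5 of the 8 fits without 1 library (edgeR adjusted p up to 0.111) and with all groups in 1 fit (0.0658). Most cell type markers also differed between these groups. Of 10 skeletal muscle markers 8 were higher and 2 lower in brown, with summed levels of 2037 to 3537 CPM in brown and 129 to 355 CPM in inguinal wild-type libraries. All 4 endothelial markers and 5 of 7 brown adipocyte markers were higher in brown (summed, 1043 to 1274 against 766 to 925 CPM and 5967 to 10150 against 1551 to 2320 CPM). All 8 B cell, 5 of 6 T cell, all 4 proliferation, 3 of 5 macrophage and 5 of 6 general adipocyte markers were lower. In brown and inguinal wild type, B cell markers summed to 4.34 to 5.22 and 13.8 to 25.3 CPM, T cell markers to 2.73 to 3.87 and 9.21 to 15.4 CPM, and proliferation markers to 44.0 to 165 and 227 to 324 CPM. Macrophage markers summed to 133 to 171 and 201 to 254 CPM, and adipocyte markers to 9661 to 11660 and 16510 to 18540 CPM. Of 4 erythroid markers 2 were higher, and of 4 progenitor markers 1 was higher and 2 lower. The part of these markers in the differences of the members was not tested.

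**Figure D4:**
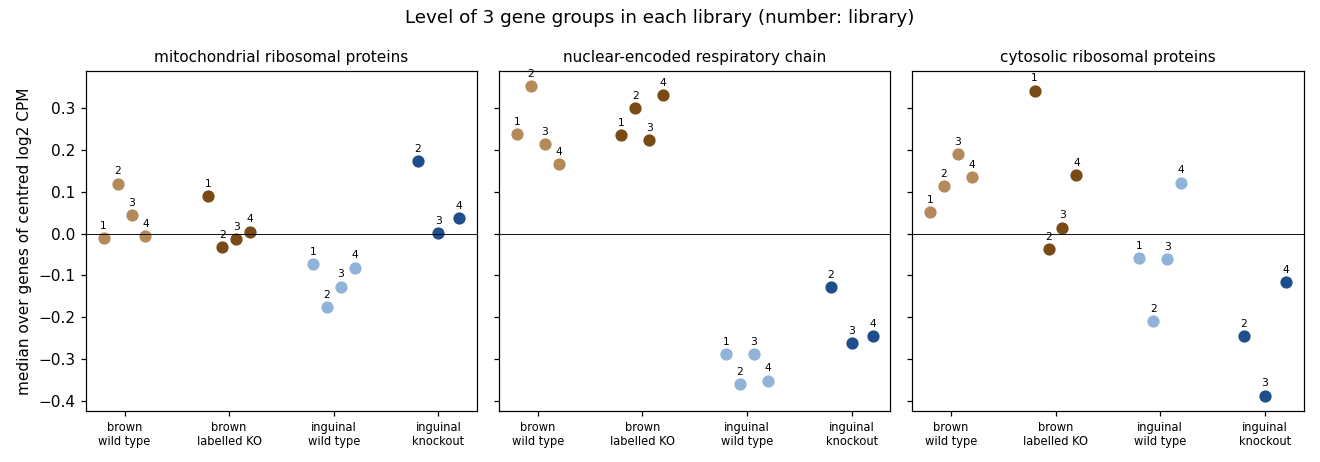
Median over genes of log2(CPM + 0.5), centred per gene on its mean over all 15 libraries, for the members, the nuclear-encoded respiratory chain and the cytosolic ribosomal proteins. For the members, inguinal knockout libraries lie at 0.0008 to 0.17 and wild-type ones at -0.18 to -0.072, while respiratory chain medians separate the 2 depots more widely.

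The sum over all members was also higher in inguinal knockout than in inguinal wild-type libraries. It was 3676, 3478, 3545 and 3720 CPM in wild-type and 4315, 3922 and 3836 CPM in knockout inguinal tissue. Knockout library 2 was the highest, and the groups did not overlap on this scale. As a share of library totals without TMM scaling, the groups did overlap. The members took 0.3436% to 0.3845% of counts in inguinal wild type and 0.3617% to 0.4049% in the knockout. Without knockout library 2 the median change over members was 0.097 in place of 0.19. In brown tissue the sum was 4021, 4295, 4215 and 4009 CPM in wild type and 4346, 3863, 3889 and 3861 CPM in the labelled knockout, where library 1 was above and the others below all wild-type libraries.

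Other genes of mitochondrial translation were counted by lists. Of all genes tested in inguinal tissue, 15.3% rose and 13.3% fell. In inguinal knockout tissue, 12 of 20 mitochondrial tRNA synthetases (60%) rose and 0 fell, with a median log2 change of 0.35. Among them were Iars2 (log2 0.59 ± 0.09, edgeR adjusted p = 0.00046), Aars2 (0.70 ± 0.12) and Fars2 (0.55 ± 0.10), which charge isoleucine, alanine and phenylalanine tRNAs. Of 16 translation factors 8 rose (50%). They include the translational activator of Cox1 synthesis Taco1 (0.85 ± 0.11, edgeR adjusted p = 0.000126) and the elongation and recycling factors Gfm1 (0.58 ± 0.10) and Gfm2 (0.55 ± 0.09). Slirp, which stabilises mitochondrial messenger RNAs with Lrpprc, was the 1 that fell, while Lrpprc rose (0.57 ± 0.11).

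Factors of ribosome assembly and RNA processing rose in 10 of 29 cases (34.5%) and fell in 0. Hsd17b10, a subunit of mitochondrial RNase P, was at 0.70 ± 0.08 (edgeR adjusted p = 6.24e-05) and the RNA-binding protein Grsf1 at 0.39 ± 0.09. Of 5 ribosomal subunits that carry other symbols 1 rose (20%), the pentatricopeptide protein Ptcd3 (0.45 ± 0.09, edgeR adjusted p = 0.00245). The other 4 did not pass, among them Dap3 (0.05 ± 0.08). Genes of mitochondrial DNA transcription and replication rose in 7 of 18 cases (38.9%), including the RNA polymerase Polrmt (0.69 ± 0.13). Among 15 regulators of mitochondrial biogenesis 6 rose (40%), including Gabpa (0.49 ± 0.10), the DNA-binding part of GABP, and Esrra (0.59 ± 0.11). Another 2 fell (13.3%), Gabpb1 and Sirt1, which like Slirp are named after their values were seen. The ETS/GABP letters were in 6 of 19 promoters (31.6%) of members that rose and in 19 of the other 49 (38.8%), which include the untested Mrpl53. NRF1 letters were in 2 (10.5%) and 1 (2.04%), YY1 letters in 2 (10.5%) and 3 (6.12%), and the E-box in 0 and 5 (10.2%). These differences were not tested.

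Respiratory chain subunits encoded in the nucleus rose in 23 of 81 cases (28.4%) and fell in 3 (3.7%), with a median of 0.16. That share of rises is near the 30.3% of the members. Cytosolic ribosomal proteins moved the other way: 2 of 82 rose (2.44%) and 18 fell (22%), with a median of -0.19. Those that fell include Rpl38 (-0.48 ± 0.10) and Rpl37a (-0.51 ± 0.11). In brown tissue none of these lists had a call by edgeR, and at an unadjusted p below 0.05 they held 0 to 15 genes each. The highest count, 15 of 81 respiratory chain genes, is 18.5%, which is also the share of all genes (18.5%).

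**Figure D5:**
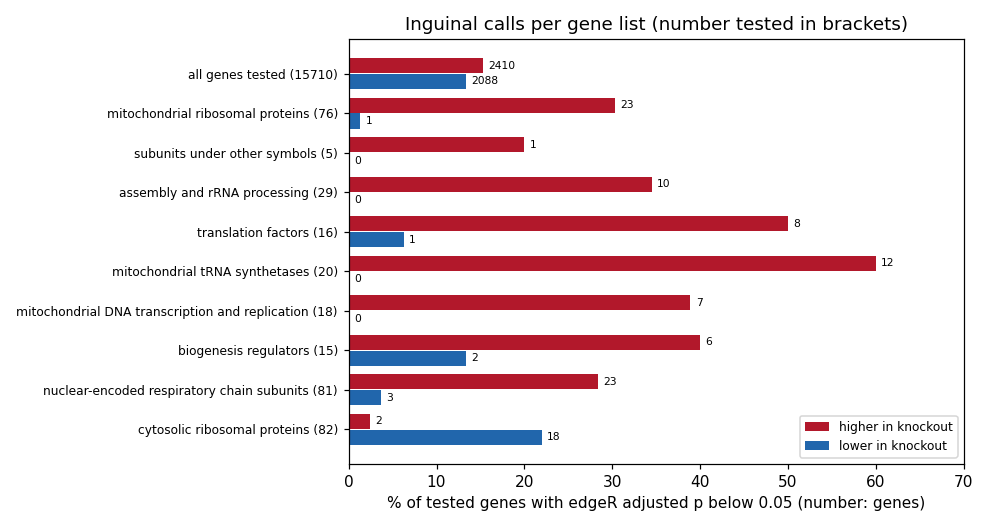
Percent of tested genes in each list that rose (red) or fell (blue) in inguinal knockout tissue, with the number of genes at each bar. The mitochondrial translation lists have more red than blue, as do the members (23 and 1), and the cytosolic ribosomal proteins have more blue (2 and 18).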

How the data were processed

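Polyadenylated RNA from 15 adipose libraries was sequenced with a stranded Illumina TruSeq kit, per the labels' protocols. Per the submitters' processing notes, the build was mm9 and the tools included featureCounts (Subread), TopHat2 2.1.0 and edgeR. Not given in the sources used here are the annotation, the strand setting and the treatment of multi-mapping reads. The values the authors deposited are raw counts per Ensembl gene, not normalized. Of 37991 identifiers, 32919 were matched to a symbol. Exon lengths and overlaps came from GENCODE M21 on GRCm38, another build than mm9, so no gene coordinates are given; promoter windows are RefSeq's.

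Fits used the libraries of the 2 groups compared, or all 4 groups for the difference of effects, in R 4.3.3 with edgeR 4.0.16 (filterByExpr with a minimum count of 10, TMM, robust quasi-likelihood F-test, Benjamini-Hochberg over all genes kept, threshold 0.05). The SE was taken as the size of the log2 change over the root of its F statistic. The fitting code was also run on counts simulated with known fold changes. That simulation held no outlying library, so it does not cover such a case. Alternatives were DESeq2 1.42.0 size factors and Wald test, limma 3.58.1 voom with quality weights, no filter, a filter at 5 CPM, 1 fit over all groups, a replicate block and fits without each library; scaling by library totals alone was chosen after seeing the data. Lists are described by counts and medians, with no test.

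The members, the gene lists, the markers and the rule for named genes were chosen with earlier results of these data known. The rule named up to 15 passing members in each direction per comparison by adjusted p, the 3 largest changes in each direction in brown tissue, the 3 highest and lowest levels, selected paralogues and stalk, decoding and rescue proteins, and up to 4 genes per list. Mrpl33 was not analysed here. Total counts of 26059635 to 53923009 per library limit precision mainly for Mrpl53 and Mrps34.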

Additional observations from a re-analysis of the deposited data

Results flagged for a closer look

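In 20 of the 228 sets of 4 libraries examined (a member in a group), 1 library lay far from the other 3; chance does this in about 1 of 20 sets. Labelled knockout library 1 of brown tissue was the distant one for 6 members: Mrpl47 (58.9 CPM), Mrps21 (42.9), Mrps25 (28.3), Mrps27 (34.8), Mrps35 (83.8) and Mrps5 (68.6). Wild-type brown library 2 was distant for Mrpl18 (60.6 CPM), Mrpl37 (119), Mrpl43 (33.2) and Mrps14 (68.7), library 1 for Mrpl35 (67.1) and Mrps23 (61.3), and library 3 for Mrpl45 (86.6). Other labelled knockout libraries were distant once each, library 3 for Mrpl23 (15.1 CPM), library 4 for Mrps10 (38.9) and library 2 for Mrps6 (34.7). In wild-type inguinal tissue, library 3 was distant for Mrpl15 (65.3 CPM) and Mrpl39 (53.4), and library 1 for Mrpl28 (56.9) and Mrps11 (21.3).

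The knockout effect differed between inguinal and brown tissue in 10 members. The inguinal effect minus the brown one, on the log2 scale with edgeR's adjusted p, was 0.98 for Mrps2 (0.00123), 0.65 for Mrps23 (0.00367), 0.53 for Mrpl16 (0.0102), -0.7 for Mrps6 (0.0107), 0.7 for Mrpl46 (0.0182), 0.69 for Mrps18b (0.0186), 0.93 for Mrps27 (0.0202), 0.83 for Mrpl47 (0.0218), 0.49 for Mrpl10 (0.0379) and 0.38 for Mrpl50 (0.0445).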

How the results depend on the processing

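The direction of every median over members held under each alternative run, and no called value turned its sign. In brown tissue the count of higher members was 3 by limma-voom, 1 by DESeq2's Wald test and 0 to 1 when each library was left out; the count of lower members was 13 with limma-voom and 0 to 12 without each library. For inguinal tissue, higher members numbered 14 with all groups in 1 fit, 12 by library totals alone and 15 to 27 without each library. Lower members numbered 2 with the 5 CPM filter, 2 with limma-voom, 3 by library totals and 1 to 2 without each library. The inguinal median was 0.081 by library totals and 0.097 to 0.22 without each library. For the difference of effects, higher members numbered 23 by limma-voom, 16 by the Wald test and 3 to 26 without each library, with a median of 0.12 to 0.25. Between wild-type depots, lower members numbered 10 with all groups in 1 fit and 11 to 16 without each library. The cause was not tested in any of these. Over all alternatives, calls of single named members in inguinal tissue were kept 296 times and lost 64 times, and in the tissue comparison kept 454 times and lost 25 times. For the difference of effects they were kept 181 times and lost 39 times. In brown tissue the named members had no call to lose. They stayed without a call 85 times and gained one 10 times.

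Whether the replicate numbers pair the samples is not settled by these values. Same-numbered libraries had deviations correlated at 0.093, -0.040, 0.17 and 0.099 in brown and -0.099, -0.039 and 0.046 in inguinal tissue. For differently numbered libraries the correlations ran from -0.15 to 0.084 in brown and from -0.10 to 0.14 in inguinal tissue. With the number as a block, 2 members had the higher inguinal effect in place of 9, and 20 in place of 23 rose in inguinal tissue. Depth limits mainly Mrps34 and Mrpl53.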
